A study of Mus musculus with 12 samples.

Results

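The 10 genes described here, Gapdh, Slc2a3, Slc2a1, Hk1, Aldoa, Pgk1, Eno1, Eno2, Pkm and Ldhb, carry glucose into brain cells and break it down. They were taken by name as glucose transport and glycolysis genes. The rule itself uses no measured value, but earlier results of these data were known when the genes were chosen. They are 10 of the 15002 genes that reached 10 expected counts in all 6 libraries. All 10 were detected.

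The labels describe 12 cortex samples of mice, 6 Larp1 WT (Nestin-Cre) and 6 Larp1 KO (Nestin-Cre;Larp1-flox/flox, the conditional knockout called Larp1 cKO in the study), as 3 replicates of 2 parts for each genotype. Larp1 encodes an RNA-binding protein that recognizes terminal oligopyrimidine (TOP) motifs, short pyrimidine runs at the very start of an mRNA. Both genotypes carry Nestin-Cre, which acts in progenitors of neurons and some glia, so other cells of the cortex may keep Larp1. The methods name male C57BL/6J mice and posterior cortex, and the labels name RNA depleted of ribosomal RNA and give no age. The files hold 6 libraries, each named for a mouse (678, 687, 688, 698, 700 and 703), and the genotype, replicate and part behind each mouse number are not given in the labels or the methods. That the libraries are cortex is likewise taken from the labels as a whole. No genotype was therefore assigned, no group was formed, and each value is given by library or as a range, with no test between libraries.

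Glucose crosses the membrane of brain cells through facilitative transporters of the SLC2A family, and hexokinase traps it inside as glucose-6-phosphate. Glycolysis then splits the sugar, harvests ATP and NADH, and ends at pyruvate. Pyruvate is either burnt in mitochondria or turned into lactate, which cells of the brain also exchange with each other. Neurons and astrocytes use partly different isoenzymes for the same step, so the mix of paralogs in bulk cortex depends on its cells. In such bulk samples, fewer cells of a type and less RNA per cell cannot be told apart.

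The start of the mRNA is shown first, because the study asks about mRNAs that begin with a TOP motif. The lines below give the first 20 bases, 5′ to 3′, of the leading annotated isoform (the one with the highest median level) of 4 members and of Ldha, the other main lactate dehydrogenase subunit. Capitals mark a C with at least 4 pyrimidines after it, where one begins within 5 bases after the annotated start.
Ldhb-201: CTCCTCCTTCTTgtagagcc
Ldha-202: ctgcgtgctggagccactgt
Slc2a1-201: gtgCTCCCCaggccccgccc
Pkm-202: cccgcacagcagcgactcgt
Gapdh-203: ggggaaatgagagaggccca

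Of the 10 members, 1 had a TOP motif at the first base of its leading isoform. This was Ldhb, with 11 pyrimidines after the first C. Among detected protein-coding genes, 2.36% (321 of 13619) had such a motif, searched as C followed by 4 letters that are each C or T. Ldha, its partner subunit, also starts with C but has 1 pyrimidine after it. Slc2a1 joined Ldhb where the motif could begin up to 5 bases after the start (10.8% of genes), and Slc2a3 joined Ldhb where any annotated isoform counted (10.7% of genes). The starts of Gapdh, Hk1, Aldoa, Pgk1, Eno1, Eno2 and Pkm held no match under any of these searches of the leading isoform. The search within 5 bases left out the other isoforms, of which Gapdh-202, Eno2-216 and Eno2-207 held such a match after the first base. Annotated starts may differ from those used in cortex, and a match in the letters is no measurement of Larp1 binding.

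RefSeq places the start of Ldhb at the same base, 142507957 of chromosome 6 on the minus strand (GRCm38). Of the 9 members with a RefSeq start in the tables used (all but Slc2a3), Ldhb was also the 1 with the motif, against 3.01% (813 of 27025) of all genes with such a start. The window below holds 60 bases of the Ldhb gene, chr6:142507938-142507997 on the minus strand, GRCm38.p6, from 40 bases before the start to 20 bases into the first exon. The pyrimidine run of the mRNA is in capitals.
Ldhb promoter: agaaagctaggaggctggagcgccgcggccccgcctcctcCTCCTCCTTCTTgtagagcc

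The values are TPM, shares of all listed transcripts on a fixed total, which correct for transcript length and so allow genes to be set side by side within a library. Being shares, they depend on the rest of the library, and a library with less of some other RNA has higher TPM for the rest. Totals ran from 34689262 to 44463362 expected counts per library, and the members held at least 1690 (Slc2a1) and up to 42936 (Aldoa) of them. At these counts the counting error alone was 0.525% to 2.43% of a member's lowest count, and the error of the isoform assignment is unknown. The libraries carried markers of cortical neurons, with Snap25 at 715 to 1004 TPM and Slc17a7, the vesicular glutamate transporter of cortical excitatory neurons, at 347 to 492 TPM. Of the listed markers of regions other than cortex, Gabra6 of cerebellar granule cells had at most 0.02 TPM and Pcp2 at most 0.09 TPM. Drd1 had 2.39 to 6.34 TPM, Drd2 0.29 to 3.03 TPM and Prox1 2.38 to 2.97 TPM. The part of other regions in the libraries was not tested. The targeted gene Larp1 ran from 6.28 to 19.96 TPM, which was not used to assign a genotype. Mouse 703 had the highest share of nuclear protein-coding RNA, as these genes held 28.8% of its TPM and 22.7% to 26.1% in the other libraries. Member levels are therefore also given as TPM rescaled to a fixed total over nuclear protein-coding genes.

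Together the 10 members held 0.260% to 0.339% of all TPM. Their sum was 2917 TPM in mouse 678, 2617 in mouse 687, 2601 in mouse 688, 2986 in mouse 698, 2622 in mouse 700 and 3390 in mouse 703. Mouse 703 was the highest and the other libraries lay within 1.15-fold of each other. After rescaling over nuclear protein-coding genes the sum ran from 1.07% to 1.18% of that RNA, a ratio of highest to lowest library of 1.10 in place of 1.30.

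**Figure D1:**
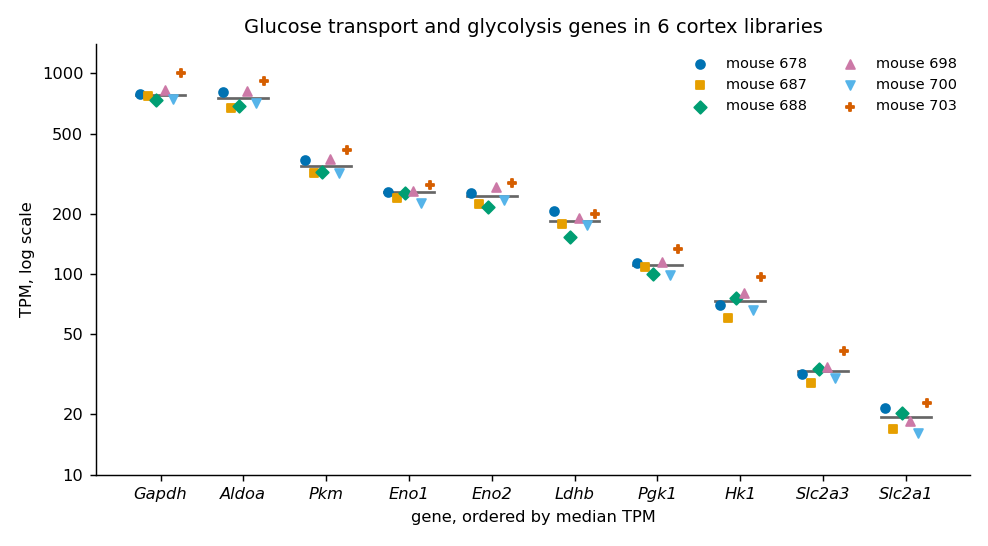
TPM (log axis) of the 10 genes in each of the 6 libraries, ordered by median, with the median of each gene as a grey line and no genotype assigned. Gapdh and Aldoa lie at 671 to 1007 TPM, Slc2a1 lies at 16.2 to 22.9 TPM, and mouse 703 is the highest library for 9 of the 10 genes.

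The order of the members by median TPM was Gapdh, Aldoa, Pkm, Eno1, Eno2, Ldhb, Pgk1, Hk1, Slc2a3 and Slc2a1. Neighbours in this order kept their order in 6 of 6 libraries except in 2 places. Gapdh was above Aldoa in 5 libraries, and Eno1 above Eno2 in 3, with overlapping ranges in both cases. The enzymes of the lower pathway thus had medians from 111 TPM (Pgk1) to 781 TPM (Gapdh), and the transporters had medians of 19.4 and 32.8 TPM. By expected counts, which do not correct for length, 3 of the 10 genes kept their place, and Aldoa stood above Gapdh in the median library.

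Glucose enters through Slc2a3 (GLUT3, the high-affinity transporter of neurons) and Slc2a1 (GLUT1, the transporter of the blood-brain barrier and of astrocytes). Slc2a3 (chromosome 6, 122727809 to 122801640, minus strand, GRCm38) had 31.9, 28.6, 33.7, 34.3, 30.3 and 41.4 TPM in mice 678, 687, 688, 698, 700 and 703. Slc2a1 (chromosome 4, 119108711 to 119137983, plus strand) had 21.5, 17.0, 20.4, 18.5, 16.2 and 22.9 TPM in the same order. The 2 ranges did not overlap, and Slc2a3 was the higher gene in every library, by 1.48-fold in mouse 678 to 1.87-fold in mouse 700. After rescaling, Slc2a3 ran from 117 to 144 and Slc2a1 from 69.1 to 83.4. Slc2a3 held 38.5% (34.1% to 40.9%) and Slc2a1 21.9% (20.2% to 24.5%) of the summed TPM of the 11 SLC2A genes listed. Between them stood Slc2a13, a proton-coupled myo-inositol transporter, with 23.0% (20.5% to 30%). The insulin-regulated Slc2a4 had 0.24 to 0.41 TPM, and Slc2a2, the transporter of liver and beta cells, at most 0.03 TPM. The summed level of 5 endothelial markers, all detected, was 20.8 TPM in mouse 700, which was also the library lowest in Slc2a1 TPM, and up to 31.5 TPM in mouse 687, which was the lowest in Slc2a1 after rescaling. The part of endothelial content in the Slc2a1 level was not tested.

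A large share of Slc2a1 did not come from its full coding isoform. Slc2a1-201, with 1476 coding bases, held 57.8% (53.9% to 60.5%) of the gene's TPM. Slc2a1-204, annotated as a target of nonsense-mediated decay, held 41.9% (38.6% to 45.2%). By expected counts the leading isoform held 67.2%. For Slc2a3, Slc2a3-201 held 87.9% (80% to 92.2%), the short coding isoform Slc2a3-202, which starts 58895 bases upstream, held 6.51%, and the decay-annotated Slc2a3-203 held 0% to 10.1%. Slc2a3-203 was listed at 0 in mice 678 and 687.

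Hk1, the hexokinase bound to the mitochondrial outer membrane of brain cells, makes the first phosphorylation of glucose. The gene (chromosome 10, 62268855 to 62379908, minus strand) had 70.1 TPM in mouse 678, 60.3 in mouse 687, 76.1 in mouse 688, 80.6 in mouse 698, 66.3 in mouse 700 and 96.2 in mouse 703. Its ratio of highest to lowest library, 1.60, was the widest of the 10 members. After rescaling it was again the widest, at 1.36, with mouse 687 at 245 and mouse 703 at 334 rescaled TPM. Ldhb was wider than Hk1 with the count-based scalings TMM (1.35 against 1.32), DESeq2 size factors (1.35 against 1.33) and share of counts (1.43 against 1.37), and in TPM without mouse 703 (1.35 against 1.34). Among 5 hexokinase genes Hk1 held 95.4% (94.3% to 95.6%) of the TPM, and Hkdc1 was next at 3.07%. Hk2, the insulin-responsive form of muscle and fat, stood at 0.67 to 0.89 TPM.

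Hk1 RNA was divided between 2 main isoforms with different starts. Hk1-201, with 2835 coding bases, held 46.9% (42.5% to 49.0%) of the gene's TPM. Hk1-202, which starts 17820 bases downstream and has 2754 coding bases, held 43.9% (41.6% to 48.3%). Mouse 687 was the library in which Hk1-202 exceeded Hk1-201, and by expected counts Hk1-202 was the larger in the median library, at 49.2% against 44.3%. Hk1-205 held 7.90%.

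Aldoa cleaves fructose-1,6-bisphosphate into a pair of triose phosphates. This gene (chromosome 7, 126795234 to 126809108, minus strand) had 805, 671, 691, 817, 710.2 and 915 TPM in mice 678, 687, 688, 698, 700 and 703. After rescaling, Aldoa ran from 2735 in mouse 687 to 3202 in mouse 698. Aldoc, the aldolase of astrocytes, ran from 186 to 237 TPM, so that Aldoa held 79.1% and Aldoc 20.9% of aldolase TPM. In mouse 687 the split was 76.3% to 23.7%, apart from the other libraries. Aldoa-201 held 81.8% of the gene's TPM and Aldoa-203, with the same 1092 coding bases and a start 1193 bases upstream, held 9.25%.

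Gapdh oxidizes glyceraldehyde-3-phosphate and makes NADH, and is a common reference mRNA. The gene (chromosome 6, 125161715 to 125166467, minus strand) had 789, 772, 733, 826, 748 and 1007 TPM in mice 678, 687, 688, 698, 700 and 703. Mouse 703 lay far from the others by Dixon's ratio, the gap to the nearest library over the whole range, which was 0.660 and above its 95% critical value for 6 values. Gapdh was 1 of 10 members with such a library, and the share among detected genes was 7.03%. After rescaling, Gapdh ran from 3004 in mouse 688 to 3495 in mouse 703 and no member passed the limit. Against Actb, the cytoskeletal actin also used as a reference, Gapdh was 1.14, 1.23, 1.18, 1.12, 1.23 and 1.26 times as high in the same order of libraries, a spread of 1.12-fold. Against Eif4g2, a translation factor for which the study lists primers, the ratio ran from 5.04 to 6.31.

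The Gapdh gene is copied many times in the genome. Of all genes in the annotation, 75 (74 of them pseudogenes) matched the Gapdh mRNA with at least 95% identity over at least 80% of their length. Together they held 16.0 to 21.9 TPM, which was 2.17% to 2.48% of the level of Gapdh in each library. Gapdh-203, with 999 coding bases, held 68.6% (65.2% to 71.8%) of the gene's TPM, Gapdh-202 16.1% (9.59% to 22.5%) and Gapdh-212 12.4% (10.2% to 18.5%). The shares of these 3 overlapping isoforms moved more between libraries than the split of Pkm given next, and RSEM divides their shared reads by estimate.

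**Figure D2:**
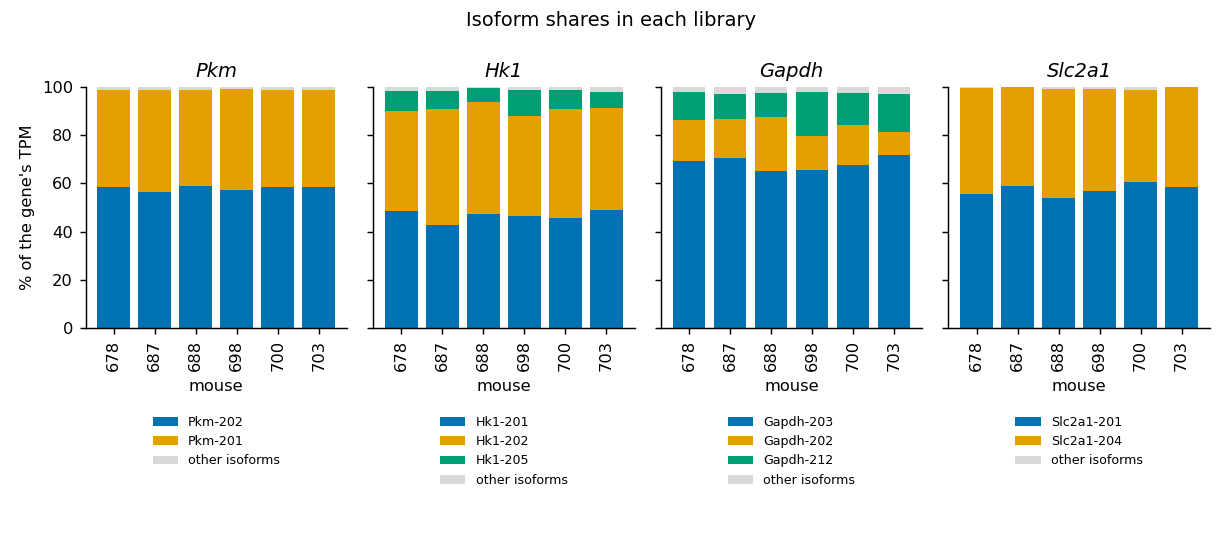
Share of each gene's TPM (percent, stacked to 100) held by isoforms at 5% or more in the median library, for Pkm, Hk1, Gapdh and Slc2a1 in the 6 libraries. Pkm-202 stays between 56.3% and 59.1% in each library, and Gapdh-202 ranges from 9.59% in mouse 703 to 22.5% in mouse 688.

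Pgk1 returns the first ATP of the pathway, and its gene lies on the X chromosome (106187100 to 106203699, plus strand). It had 113, 108, 99.9, 115, 98.6 and 134 TPM in mice 678, 687, 688, 698, 700 and 703. After rescaling it ran from 409 in mouse 688 to 464 in mouse 703, a ratio of 1.13. With the count-based scalings mouse 688 lay far below the others in Pgk1 by Dixon's ratio, which was 0.730 with TMM, 0.695 with DESeq2 size factors and 0.631 by share of counts. The share of detected genes with such a library was determined in TPM only, at 7.03%. Pgk2, the retrogene copy active in testis, was listed at 0 in every library. Pgk1-201 held 99.2% of the gene's TPM, and 4 near-identical pseudogenes together held 2.81 to 4.33 TPM.

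The enolases turn 2-phosphoglycerate into phosphoenolpyruvate. Eno1, the enolase of most tissues (chromosome 4, 150236721 to 150248879, plus strand), had 256, 240, 254, 259, 225 and 277 TPM in mice 678, 687, 688, 698, 700 and 703. Eno2, the neuron-specific enolase (chromosome 6, 124760053 to 124769673, minus strand), had 255, 224, 215, 271, 235 and 283 TPM in the same order. The cortex libraries thus held about equal RNA for both forms, with Eno1 over Eno2 from 0.954 in mouse 698 to 1.18 in mouse 688. Eno1 held 49.2% (46.3% to 53.7%) and Eno2 48.7% (45.5% to 50.8%) of enolase TPM, and Eno3 of muscle had 0.95 to 1.39 TPM. The Eno1 ratio of highest to lowest library, 1.23, was the narrowest of the 10 members, and lower than that of all but 5.75% of detected genes. After rescaling it was 1.09. With its near-identical copies added, described below, the TPM ratio was 1.504. After rescaling, Eno2 ran from 883 in mouse 688 to 1064 in mouse 698. By expected counts the order of the medians of Eno1 and Eno2 was the other way round. Eno2-201, with 1302 coding bases, held 53.1% of Eno2 TPM and 76.5% of its expected counts. Shorter Eno2 isoforms took the rest, led by Eno2-213 (17.4%), Eno2-216 (8.50%), the retained-intron form Eno2-210 (7.80%) and Eno2-207 (5.88%). Eno1-202 held 94.5% of Eno1.

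The Eno1 value in mouse 703 depends on how near-identical copies are treated. Eno1b, an intronless coding copy of Eno1 whose aligned sequence is 99.5% identical, had 1.51, 2.26, 2.07, 1.75 and 1.93 TPM in mice 678, 687, 688, 698 and 700, and 35.4 TPM in mouse 703. Its expected counts were 95 to 163 in those 5 libraries and 1934 in mouse 703. The processed pseudogene Gm4735 on chromosome 2, 99.6% identical, went the same way, from 4.72 to 6.65 TPM in those 5 libraries to 36.4 TPM in mouse 703. Together the 3 near-identical copies of Eno1 held 6.81 to 8.35 TPM in the other libraries and 71.8 TPM in mouse 703, where this was 25.9% of the level of Eno1. After rescaling, Eno1 alone was lowest in mouse 703, at 960 against 977 to 1042 in the others. With the copies added, mouse 703 became the highest, at 1209 against 1005 to 1075. RSEM assigns reads shared by such copies by estimate, so a part of the reads may be placed on the wrong copy, and how large a part was not tested.

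**Figure D3:**
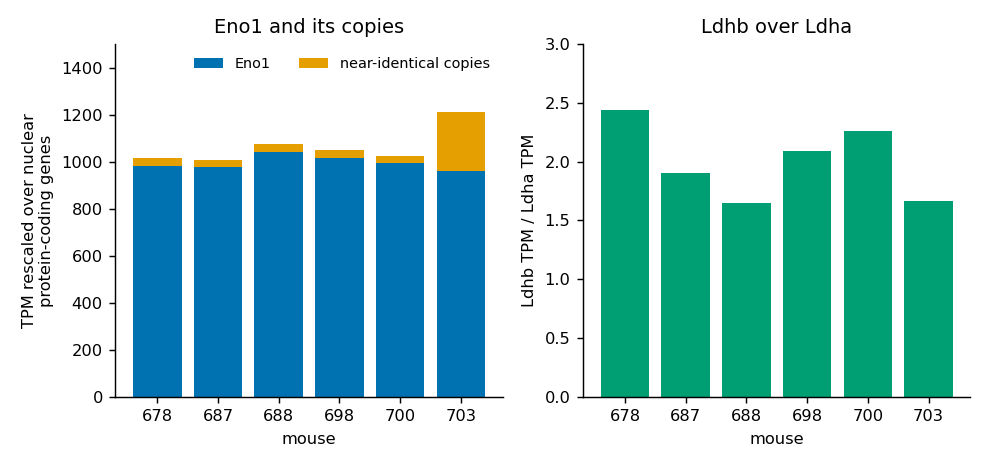
Left, rescaled TPM of Eno1 (blue) and of its near-identical copies (orange, stacked) by library. Right, TPM of Ldhb divided by that of Ldha by library. The copies add 71.8 TPM as deposited in mouse 703 and at most 8.35 TPM in any other library, and Ldhb over Ldha runs from 1.65 in mouse 688 to 2.43 in mouse 678.

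Pkm makes pyruvate and the last ATP of glycolysis, and its gene (chromosome 9, 59656368 to 59679375, plus strand) is read in either of 2 ways. The lines below give the 2 mutually exclusive exons of the gene, because the split between them is the isoform result for Pkm. Each is exon 9 of its own transcript and has 167 bases, on the plus strand of GRCm38, chr9:59675029-59675195 in Pkm-202 and chr9:59675568-59675734 in Pkm-201. Capitals mark the bases that differ when the exons are aligned end to end.
Pkm-202 exon: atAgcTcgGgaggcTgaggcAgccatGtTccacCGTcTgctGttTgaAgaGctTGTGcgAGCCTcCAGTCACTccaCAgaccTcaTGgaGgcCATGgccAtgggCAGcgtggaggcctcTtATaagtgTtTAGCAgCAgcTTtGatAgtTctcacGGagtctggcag
Pkm-201 exon: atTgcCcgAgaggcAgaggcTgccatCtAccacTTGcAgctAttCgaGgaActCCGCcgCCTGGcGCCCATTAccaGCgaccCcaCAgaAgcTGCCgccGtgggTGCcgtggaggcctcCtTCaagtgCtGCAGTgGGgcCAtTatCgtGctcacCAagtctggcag

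The exons differ at 64 of 167 positions and are 61.7% identical. The upstream exon gives the M1 form of the enzyme, which is constitutively active and known from neurons and muscle, and the downstream exon gives the M2 form, which is allosterically regulated and known from astrocytes and proliferating cells. Both transcripts have 11 exons and 1593 coding bases. The M1 transcript Pkm-202 held 58.6% of Pkm TPM in the median library, with 56.3% in mouse 687 as the lowest and 59.1% in mouse 688 as the highest. The M2 transcript Pkm-201 held 40.5% (39.6% to 42.8%). By expected counts the M1 transcript held 54.4%. The gene as a whole had 368, 320, 323, 373, 318 and 415 TPM in mice 678, 687, 688, 698, 700 and 703, and 1303 to 1463 rescaled TPM. Pklr, the pyruvate kinase of liver and red cells, was not detected.

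Ldhb encodes the heart-type subunit of lactate dehydrogenase, which is known from neurons, and Ldha the muscle-type subunit, which is known from astrocytes and from cells that release lactate. Ldhb (chromosome 6, 142490249 to 142507957, minus strand), the member with the TOP motif printed above, had 206, 177, 153, 191, 175 and 199 TPM in mice 678, 687, 688, 698, 700 and 703. It was the 1 member not highest in mouse 703. Ldha ran from 77.6 to 119.5 TPM. Ldhb held 66.6% (62.2% to 70.9%) of the TPM of the lactate dehydrogenase genes, and Ldhb over Ldha was 2.43, 1.91, 1.65, 2.09, 2.26 and 1.66 in the same order of libraries. This ratio does not depend on the scaling of the library. Its spread of 1.48-fold was wider than those of Slc2a3 over Slc2a1 (1.26-fold), Eno1 over Eno2 (1.24-fold) and Gapdh over Actb. After rescaling, Ldhb was 792, 719.8, 628, 748, 772 and 689. Ldhb-201 held 98.7% of the gene's TPM, and 1 near-identical pseudogene had 0.77 to 1.42 TPM.

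The ratio of highest to lowest library was smaller after rescaling than in TPM for 10 of 10 members. The median ratio of detected genes also fell, from 1.49 to 1.36, and the share of detected genes with a smaller ratio was not determined. In TPM, the highest library was at least 25% above the lowest for 9 of 10 members, Eno1 without its copies being the exception, and for 92.0% of detected genes. Mouse 703 was the highest library for 9 of 10 members and for 53.0% of detected genes. Without mouse 703, 4 members passed this 25%, namely Slc2a1, Hk1, Eno2 and Ldhb, and the ratio of the summed level was 1.15, while 75.7% of detected genes passed in the same 5 libraries. After rescaling over nuclear protein-coding genes, 2 members passed, Hk1 at 1.36 and Ldhb at 1.26, against 70.2% of detected genes. Mouse 703 was then the highest for 4 of 10 and for 20.7% of detected genes. The median ratio of highest to lowest library was 1.36 for the members and 1.49 for detected genes in TPM, and 1.19 against 1.36 after rescaling. The members are abundant mRNAs, and among the 4710 detected genes with at least 1000 counts in every library 46.8% passed it after rescaling.

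**Figure D4:**
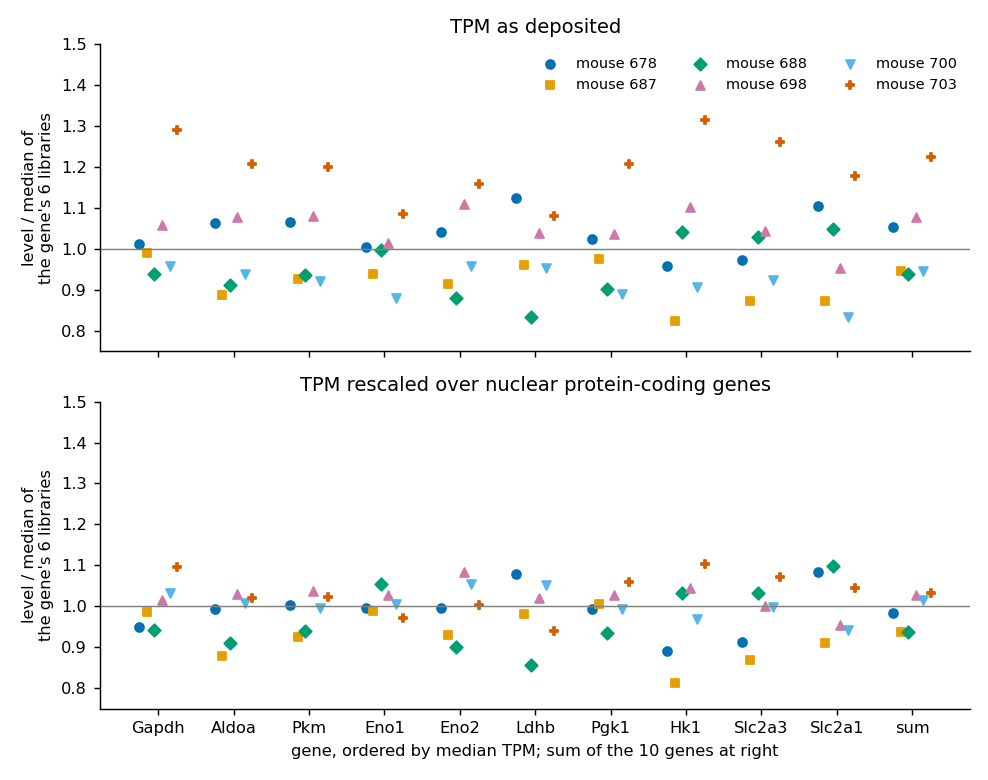
Level of each gene in each library divided by the gene's median over the 6 libraries, in TPM as deposited (top) and in TPM rescaled over nuclear protein-coding genes (bottom), with the sum of the 10 genes at the right. Mouse 703 lies above the rest for most genes at the top, while at the bottom the ratio of highest to lowest library of the sum shrinks from 1.30 to 1.10.

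The wider list of glucose metabolism held 76 genes, of which 66 were detected, 56 of them no member. Of these 56, 53 had a highest library at least 25% above the lowest in TPM and 34 after rescaling. Among all detected genes these shares were 92.0% in TPM and 70.2% after rescaling. The steps not covered by the members were carried by few genes. Gpi1, which turns glucose-6-phosphate into fructose-6-phosphate, had 154 to 210 TPM. The committed step was shared by Pfkm (51.1% of phosphofructokinase TPM), Pfkp (31.8%) and Pfkl (16.8%), with medians of 84.5, 51.0 and 27.0 TPM. Tpi1, which interconverts the triose phosphates, had 186 to 252 TPM, and Pgam1, the phosphoglycerate mutase of brain, 153 to 217 TPM. Bsg, the chaperone of the lactate transporters, had 138 to 173 TPM.

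**Figure D5:**
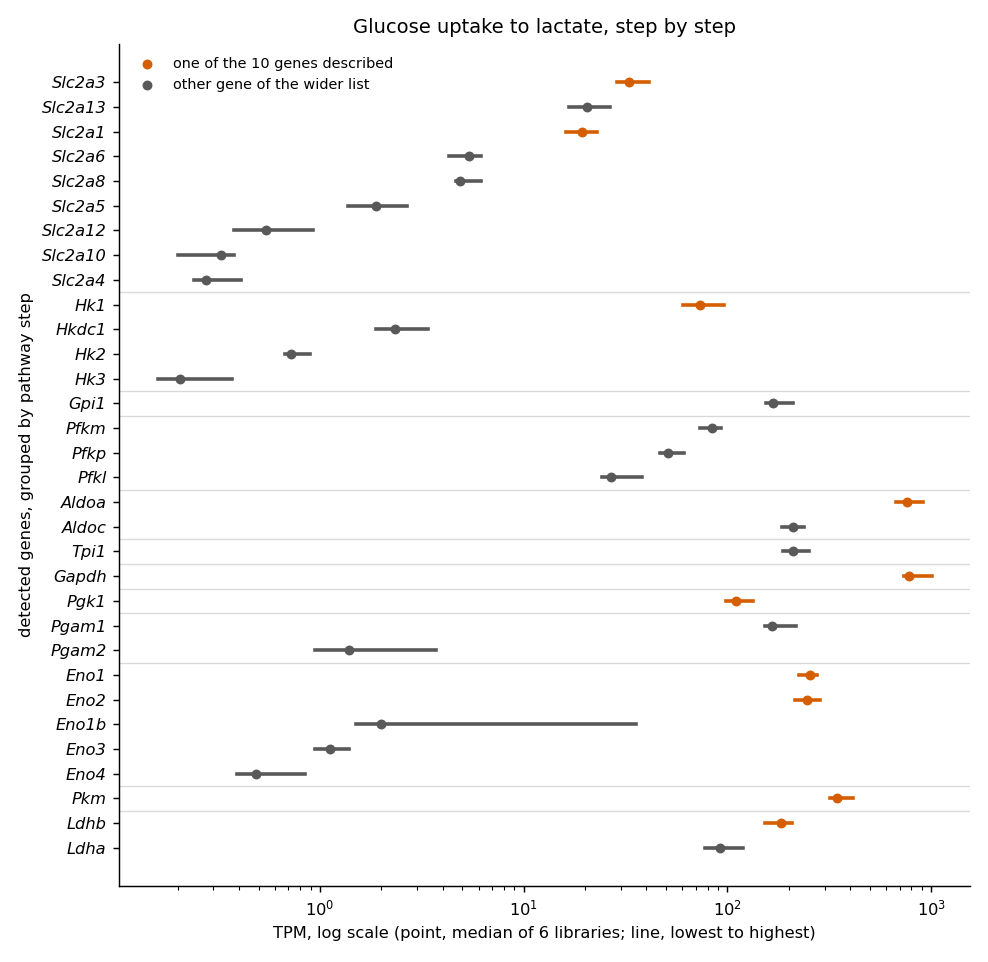
Median TPM (point) and range over the 6 libraries (line) on a log axis, for the detected genes from glucose transport to lactate, grouped by step from top to bottom, with the 10 genes described in orange. Gapdh and Aldoa have the highest medians, 781 and 757 TPM, and Eno1b has the widest range, 1.51 to 35.4 TPM.

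The 12 genes of the wider list with the highest medians were Gapdh, Aldoa, Pkm, Eno1, Eno2, Aldoc, Tpi1, Ldhb, Gpi1, Pgam1, Bsg and Pgk1. The members missing from these 12 were Hk1, Slc2a3 and Slc2a1. The widest ratios of highest to lowest library among detected genes of the list were those of Eno1b (23.4), the muscle phosphoglycerate mutase Pgam2 (3.96, at 0.94 to 3.72 TPM) and the lactate exporter Slc16a3 (3.06, at 0.79 to 2.42 TPM). Genes below the count filter included Slc2a2, Slc2a9, Pklr, Slc16a8, Pfkfb1 and the germ cell forms Gapdhs, Pgk2 and Ldhc.

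The genes most like the summed level of the members over the 6 libraries, by Pearson r of log2(TPM + 1), were Lrrfip1, Gpi1, Gm12715, Slc25a51 and Lin7b, with r of 0.994 to 0.998. The points share libraries and their RNA makeup, and 5.98% of 14992 genes reached r of 0.9. After rescaling, 0.514% did, and of the 5 named genes 1 stayed among the first 5. This was Gpi1, the next glycolytic enzyme after hexokinase, with r of 0.977. Gpi1 then had rank 4, after 9530082P21Rik (0.17 to 0.43 TPM), Gys1 and Il17rb (0.12 to 0.38 TPM), and before Gm7467.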

How the data were processed

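Ribosomal RNA-depleted RNA of mouse cortex was sequenced. Per the labels and methods, cutadapt, STAR (genome build mm10) and RSEM were the authors' tools for trimming, alignment and quantification, whose versions the sources used here do not give. The authors deposited expected counts per transcript, not normalized, and the deposited TPM per transcript are scaled over all transcripts listed. The methods name RNEasy columns and gene-level UCSC annotation, whereas the labels name TRIzol and the files list Ensembl transcripts. The error of the RSEM estimates is unknown.

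The 12 value columns used (2 per file) were matched to no single labelled sample, and 18 other value columns were not used. Transcripts were matched to GENCODE M21 (99.36% of 142351, 910 unmatched) and summed per gene. Scalings were TPM, TPM rescaled over nuclear protein-coding genes, TMM (edgeR 4.0.16), DESeq2 1.42.0 size factors (R 4.3.3) and shares of expected counts. No 2 libraries agreed within sampling noise (chi-square per degree of freedom 14.8 to 67.4 over 15 pairs). Copies of the leading transcripts were found with blastn 2.17.0. Python 3.11.15 with pandas 2.3.3 was used, and the scripts were tested on simulated data. Dixon's ratio was the test for a library far from the others.

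The members and lists were chosen with earlier results of these data known. Named genes were the members, each paralog or step beside a member, the 12 highest and the 3 widest of the wider list, isoforms at 5% or more, and the 5 genes of highest r. Some genes of the wider list are not reported here.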

Additional observations from a re-analysis of the deposited data

Results flagged for a closer look

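A library lay far from the other 5 by Dixon's ratio in the following cases, and chance flags about 1 in 20 sets of values. The cause was tested for none of them. The sets examined were 66 detected genes of the wider list in TPM, 23 isoform shares, 18 family shares and 8 sums with near-identical copies.

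Mouse 703 was the library apart in most of them. It was high in Gapdh (1007 TPM, or 1029 TPM with its near-identical copies), in Ldha (119.5 TPM), in Pfkl, the liver-type phosphofructokinase (38.0 TPM), in Slc2a8, an intracellular hexose transporter (6.16 TPM), and in Eno4 (0.84 TPM). It was also high in Eno1b (35.4 TPM), in the summed copies of Eno1 (71.8 TPM) and in Eno1 with its copies (348 TPM). Rescaling over nuclear protein-coding genes was a check added after seeing the data. After it, mouse 703 remained far from the others in Pfkl (132 against 104 to 114) and Eno1b (123 against 5.79 to 9.21). The same held for Eno1 with its copies (1209 against 1005 to 1075). It no longer held for Gapdh, with or without its copies, Ldha (415 against 325 to 381), Slc2a8 (21.4 against 18.9 to 21.04) or Eno4 (2.92 against 1.496 to 2.08). The summed copies of Eno1 alone were not checked in this way. Nuclear protein-coding genes took 28.8% of TPM in this library, the highest share of the 6.

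Hk3, the hexokinase of blood cells, was high in mouse 698 at 0.37 TPM, near the limit of detection. Hk3 remained past the limit of Dixon's ratio there after rescaling, at 1.45 against 0.614 to 0.901. The share of Hk1 among hexokinases was low in mouse 688, at 94.3%. The share of Aldoa among aldolases was low in mouse 687, at 76.3%, with that of Aldoc high at 23.7%. The short isoform Eno2-213 was high in mouse 700, at 18.4% of Eno2.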

How the results depend on the processing

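The ratio of highest to lowest library of the summed level, 1.30 in TPM, was 1.10 after rescaling over nuclear protein-coding genes, 1.14 with TMM and 1.14 with DESeq2 size factors, and 1.15 to 1.30 when each library was left out. Members with a highest library at least 25% above the lowest, 9 in TPM, were 2 after rescaling, 2 with TMM, 2 with DESeq2 and 3 by share of counts, and 4 to 9 with a library left out, the 4 without mouse 703. Genes of the wider list past it, members included, were 62 in TPM and 36, 32, 32 and 39 under these scalings, and 44 to 61 with a library left out. The share of all detected genes past it was 92.0% in TPM, 70.2% after rescaling, 60.8% with TMM and 75.7% in TPM without mouse 703. This share was not determined with DESeq2, by share of counts or with any other library left out, so the counts there have no background. After rescaling it was 46.8% among genes with 1000 counts or more in all 6, a filter chosen after seeing the data. With DESeq2 the median ratio of highest to lowest library was 1.18 for the members and 1.31 for detected genes. By share of counts it was 1.24 against 1.32. Members with a library far from the others went from 1 (Gapdh) to 0 after rescaling, and with TMM, DESeq2 and share of counts 1 was again found but it was Pgk1. The share of detected genes with such a library, 7.03%, was determined in TPM only. By share of counts 3 genes kept their rank, and with a library left out 8 to 10 did. Of the genes most like the members, 1 stayed after rescaling. Members with a TOP motif went from 1 to 2 within 5 bases of the start and to 2 over any isoform. Apart from the length and library shares that each scaling changes by construction, the cause was not tested. Eno1 was highest in mouse 703 in TPM and lowest there after rescaling. Among these main results 32 alternatives gave the same value within the set limits and 20 moved. The limits were wide, as a share that went from 92.0% to 70.2% counted as the same. A ratio of highest to lowest library also cannot move when a library between these ends is left out. The tally is therefore no measure of how firm the results are. No paired analysis was possible because the libraries are named by mouse and their replicate numbers are unknown. Counting error was at most 2.43% for a member, and the error of the isoform assignment is unknown.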

Other observations

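Ldhb, the member with the TOP motif, can be set beside ribosomal protein mRNAs, the best known TOP mRNAs. The 80 ribosomal protein genes matched by symbol held 5.57%, 5.44%, 2.50%, 2.51%, 5.59% and 2.51% of nuclear protein-coding TPM in mice 678, 687, 688, 698, 700 and 703. Ldhb held rescaled levels of 792, 719.8, 628, 748, 772 and 689 in the same order. Mice 678 and 700 had the highest values of both. Mice 688, 698 and 703 were nearly level in ribosomal proteins, at 2.50% to 2.51%, while their Ldhb ran from 628 in mouse 688 to 748 in mouse 698. Ldhb was higher in mouse 698 than in mouse 687, and the ribosomal proteins were the other way round. No genotype is known for these libraries, so this is a description with no test.

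Other branches of glucose metabolism are given as sums over genes, which depend on how many genes are listed. In the same way the detected hexokinases summed to 76.4 TPM and the glucose and polyol transporters to 85.9 TPM. The detected genes of the pentose phosphate branch summed to 82.0 TPM over their medians, and those of glycogen metabolism to 45.5 TPM, led by the brain glycogen phosphorylase Pygb at 28.4 to 38.4 TPM. The mitochondrial pyruvate carrier gene Mpc1 had the narrowest ratio of highest to lowest library among the detected genes of the wider list in TPM, 1.14, at 54.4 to 61.9 TPM. Hemoglobin RNA ran from 2.59 TPM in mouse 688 to 34.1 TPM in mouse 678, and its source was not tested. The part of blood cells in any member's level was not tested.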
